A study of Homo sapiens with 24 samples.

Results

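RNA of 5 amino acid and folate genes, SLC7A11, SLC7A5, MTHFD2, ALDH1L2 and BCAT1, was followed through HGC27, a gastric carcinoma cell line, in 24 libraries. Each gene was read through a named row of the count tables that lies over its exons on the other DNA strand, and these are 5 of the 61578 rows. The study grew 4 lines for 3 days in medium with either of 2 sera, labelled FBS and LPDS, with 3 biological replicates for each of the 8 groups. The labels do not spell these out. FBS is the common short form of fetal bovine serum, and LPDS that of serum depleted of lipoproteins. The lines are parental HGC27, SGCTRL (labelled a wild-type guide control), and 2 lines labelled TMEM97 knockout, SG12 and SG21. TMEM97 encodes the sigma-2 receptor. No label says whether a knockout line is 1 clone or a pool, and the guides are not given.

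The 5 genes serve the supply and use of amino acids. SLC7A11 is the transport subunit of the antiporter that brings in cystine in exchange for glutamate, and SLC7A5 (LAT1) brings in leucine, tryptophan and other large neutral amino acids. MTHFD2 and ALDH1L2 act on folate-bound carbon units in mitochondria, MTHFD2 as a dehydrogenase and cyclohydrolase and ALDH1L2 as a formyltetrahydrofolate dehydrogenase. BCAT1 is the cytosolic aminotransferase of leucine, isoleucine and valine. They are commonly listed as targets of ATF4, the transcription factor that is made more when kinases of the integrated stress response phosphorylate eIF2, and ATF4 binds composite sites called CARE (C/EBP-ATF response elements). MYC, which binds the E-box CACGTG, is a further known regulator of amino acid transport and of BCAT1.

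The files count reads mostly under the gene on the strand opposite to the RNA, so each member row was read as the gene whose exons it overlaps. The row named SLC7A11-AS1 shares 865 exon bases with SLC7A11 (chromosome 4, 138164097 to 138242349, minus strand), none of them coding, and 3681 of its exon bases lie within that gene's span. ENSG00000260466 shares 271 with SLC7A5 (chromosome 16, 87830023 to 87869488, minus strand), 116 of them coding and the rest in a transcript with a retained intron. ENSG00000264324, a readthrough model, shares 295 with MTHFD2 (chromosome 2, 74198562 to 74217565, plus strand), and ENSG00000256482 shares 82 with BCAT1 (chromosome 12, 24810022 to 24949459, minus strand). All 451 exon bases of the BCAT1 row lie within that gene's span, so most of them are outside its exons. The SLC7A5 row has 522 exon bases within its gene's span and the MTHFD2 row 432. Spliced and unspliced RNA were not told apart. NOPCHAP1 shares 145 of its 25887 exon bases with ALDH1L2 (chromosome 12, 105019784 to 105084577, minus strand), which makes it the least certain of these readings. Its mean of 49.6 CPM (reads of a row for every 1000000 gene reads of its library) is close to 48.3 CPM, the 99th percentile of protein-coding rows with no gene opposite. Coordinates are those of GENCODE 29 on GRCh38 (hg38). The rows that carry the genes' own names held between 0.657% (MTHFD2) and 6.09% (ALDH1L2) of the member row's mean level.

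A coding exon through which each of 4 genes was read in whole or in part is shown, so that a reader can see what the rows overlap. SLC7A11 was read through bases that are not coding. Of the 271 bases that the SLC7A5 row shares with its gene 116 are coding, and the MTHFD2 row shares 87 coding bases and stretches of 74 and 134 that are not coding. Sequences are given 5′ to 3′ on the gene's own strand (GRCh38), and capitals mark the coding bases that the row and the gene share. The exon of SLC7A5 spans chr16:87836498-87836647 (minus strand), with the shared bases at chr16:87836532-87836647. That of MTHFD2 spans chr2:74211741-74211866 (plus strand), with the shared bases at chr2:74211741-74211827. That of ALDH1L2 spans chr12:105073861-105074005 (minus strand) and is shared whole. That of BCAT1 spans chr12:24836447-24836596 (minus strand), with the shared bases at chr12:24836477-24836558.
SLC7A5: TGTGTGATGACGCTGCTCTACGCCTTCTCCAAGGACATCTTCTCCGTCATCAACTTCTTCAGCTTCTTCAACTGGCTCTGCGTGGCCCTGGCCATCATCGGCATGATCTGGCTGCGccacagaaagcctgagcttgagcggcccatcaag
MTHFD2: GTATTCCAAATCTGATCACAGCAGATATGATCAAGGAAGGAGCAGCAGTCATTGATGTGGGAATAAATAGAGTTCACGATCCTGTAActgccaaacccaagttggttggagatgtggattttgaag
ALDH1L2: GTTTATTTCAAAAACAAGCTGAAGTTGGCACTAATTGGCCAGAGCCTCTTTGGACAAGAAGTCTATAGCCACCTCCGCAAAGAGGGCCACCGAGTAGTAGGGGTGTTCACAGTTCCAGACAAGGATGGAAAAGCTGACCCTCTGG
BCAT1: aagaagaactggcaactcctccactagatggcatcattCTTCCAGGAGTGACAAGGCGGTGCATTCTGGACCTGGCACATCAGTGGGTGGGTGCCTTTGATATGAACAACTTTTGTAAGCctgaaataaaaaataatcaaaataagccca

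Promoter windows of 300 bases, 250 before to 50 after an annotated start, were taken from RefSeq (GRCh38.p14) and searched on both strands for the CARE core TGATGNAA and the E-box CACGTG, which did not overlap in any printed window. There were 7 windows for 3 of the 5 genes, 5 of them for BCAT1 and 1 each for MTHFD2 and SLC7A5. SLC7A11 and ALDH1L2 had none. The CARE core was found in 1 of the 5 BCAT1 windows, against 3.62% of all 35116 windows. The E-box was found in that window and in the SLC7A5 window, against 7.26% of all windows. The MTHFD2 window held neither set of letters. The 2 windows with a match are printed, BCAT1 at chr12:24949052-24949351 and SLC7A5 at chr16:87869458-87869757, both on the minus strand, with the matches in capitals (TGATGCAA and CACGTG in BCAT1, CACGTG in SLC7A5).
BCAT1: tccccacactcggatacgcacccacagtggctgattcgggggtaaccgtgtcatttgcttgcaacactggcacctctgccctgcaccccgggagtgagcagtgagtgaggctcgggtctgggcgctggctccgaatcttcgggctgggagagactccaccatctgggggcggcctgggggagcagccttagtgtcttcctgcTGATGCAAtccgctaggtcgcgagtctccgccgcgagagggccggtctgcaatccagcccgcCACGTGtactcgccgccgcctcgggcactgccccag
SLC7A5: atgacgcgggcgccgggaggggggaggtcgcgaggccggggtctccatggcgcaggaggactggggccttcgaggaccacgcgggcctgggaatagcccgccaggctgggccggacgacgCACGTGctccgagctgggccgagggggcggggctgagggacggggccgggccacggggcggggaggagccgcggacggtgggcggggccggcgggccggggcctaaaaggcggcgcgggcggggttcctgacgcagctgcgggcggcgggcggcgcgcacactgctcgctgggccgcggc

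Gene reads per library ranged from 2399212 to 5543678. In 21 of 24 the most similar library, over tested rows with a mean log2 CPM above 2, came from the same group. The labels call the cells epithelial. Of 6 epithelial markers, 3 had an opposite-strand row, with means of 1.09 CPM (CDH1), 0.335 (KRT18) and 0.233 (KRT8). KRT8 and KRT18 were each read through the row of the other. EPCAM, KRT19 and CLDN4 had no such row and were not measured this way. The own-name row of CLDN4 averaged 39.4 CPM. Of 6 mesenchymal markers 5 had an opposite-strand row, with means of 23667 CPM (VIM), 212 (CD44), 107 (SPARC), 9.91 (ZEB1) and 0.444 (CDH2). The own-name row of ZEB1 averaged 66.2 CPM. The rows over CDH1, KRT18, KRT8 and CDH2 lay below 5.96 CPM, the floor used for listed genes. That floor is the 90th percentile of protein-coding rows with no gene opposite, so these genes count as not measured rather than as low. The row over TMEM97 (named IFT20) had FBS means of 129 ± 10.8 CPM (SGCTRL; SD, n = 3), 51.6 ± 4.44 (SG12) and 75.4 ± 1.85 (SG21). Its LPDS means were 159.5 ± 6.13, 190.0 ± 16.2 and 126 ± 9.45 in the same order, so the libraries labelled SG12 in LPDS were not below those of SGCTRL. That row covers the 3′ end of TMEM97, and without the guide positions it neither checks nor contradicts the labels. Libraries fell into 2 sets by the share of reads on genes that could not be given to a single gene. In 8 libraries, every SGCTRL library plus replicates 2 and 3 of the SG21 LPDS group, this share was 2.10% to 2.24%, against 2.58% to 3.15% in the remaining 16. A term for this split was tried in each comparison, and for the 5 genes its value is given where it ended or made a call.

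In SG12 all 5 genes fell in LPDS, by 1.82 to 2.24-fold, where 11% of the rows tested were called lower. The 5 genes were chosen with earlier results of these data known. RNA from bulk cultures does not separate fewer cells that express a gene from less RNA per cell. Member by member, the values that follow are CPM per library, in replicate order, with log2 differences from an edgeR quasi-likelihood F test over all 24 libraries and p-values adjusted (Benjamini-Hochberg) over the 12822 rows tested. An adjusted p under 0.05 was counted as a pass.

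**Figure D1:**
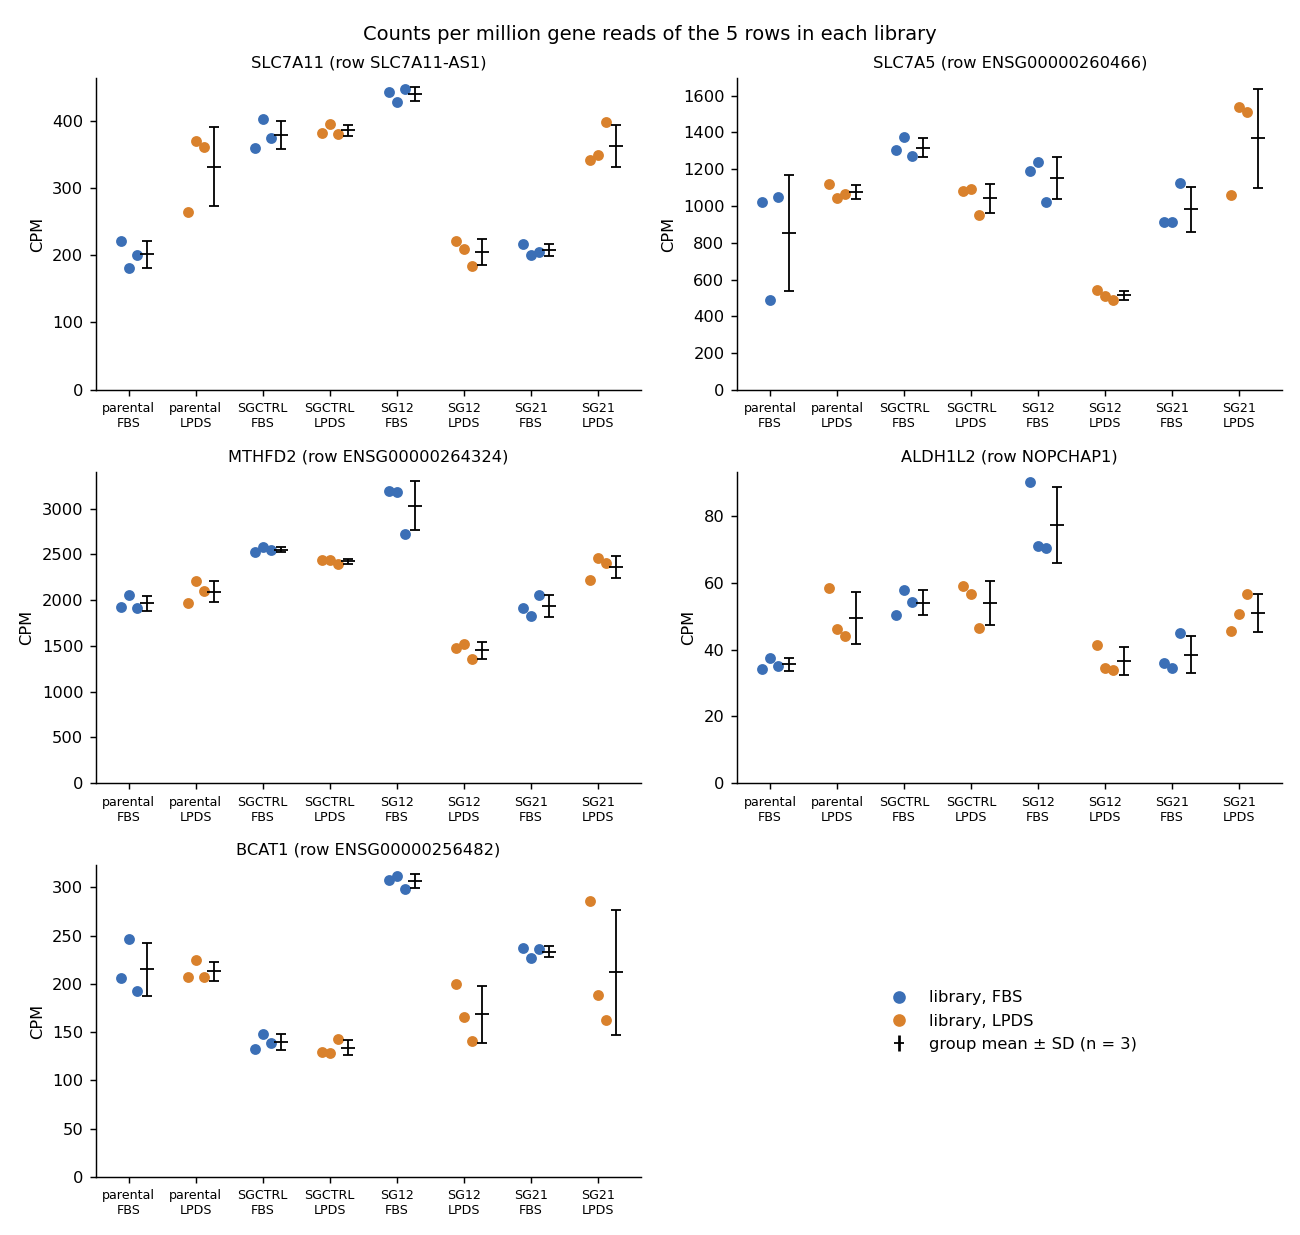
CPM (y axis, from 0) of the 5 rows in each library (points) with group mean ± SD (black, n = 3) for the 8 groups on the x axis. In SG12 every LPDS library lies below every FBS library for all 5 genes, and in 4 of the 5 panels SG12 in FBS has the highest mean. The share of all rows separated in this way was not counted, and 11% of the rows tested were called lower in SG12.

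SLC7A11, the cystine carrier, was low in 3 groups and high in the others. The levels in parental cells were 221, 181 and 201 in FBS and 264, 370.2 and 361 in LPDS. In SGCTRL they were 359.9, 402 and 374 in FBS and 381, 395 and 380.3 in LPDS. The SGCTRL values overlapped between media, while the parental values did not. In SG12 they were 443, 428 and 447 in FBS and 221, 209 and 184 in LPDS. In SG21 they were 217, 201 and 205 in FBS and 342, 348 and 398 in LPDS. The media thus separated both knockout lines, in opposite directions. The highest mean, 439 ± 10.1 CPM (SD, n = 3) in SG12 in FBS, was 2.18 times the lowest, 201 ± 19.9 in parental cells in FBS. Of the 7 neighbouring pairs in the order of the group means, 2 had ranges apart, SG12 in FBS above SGCTRL in LPDS and parental in LPDS above SG21 in FBS.

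On the log2 scale SLC7A11 rose in LPDS by 0.73 ± 0.11 (SE) in parental cells (edgeR adjusted p = 8.49e-06) and by 0.77 ± 0.11 in SG21 (edgeR adjusted p = 2.13e-06), which are 1.66-fold and 1.70-fold. In SG12 it changed by -1.10 ± 0.11 (edgeR adjusted p = 1.82e-11), a 2.15-fold fall. In SGCTRL the difference was 0.038 ± 0.10 and did not pass (edgeR adjusted p = 0.929). The response of SG12 minus that of SGCTRL was -1.14 ± 0.15, minus that of parental cells -1.83 ± 0.15 and minus that of SG21 -1.87 ± 0.15 (edgeR adjusted p = 1.93e-07, 4.03e-13 and 2.09e-13). For SG21 against SGCTRL the response differed by 0.73 ± 0.15 (edgeR adjusted p = 0.0452), a call that was lost when any of the 12 libraries involved other than replicate 1 of SG21 in LPDS was left out (adjusted p 0.0576 to 0.203), and with the split term (0.68, adjusted p = 0.881). With parental cells in place of SGCTRL that difference was 0.038 (edgeR adjusted p = 0.945).

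SLC7A5, the large neutral amino acid carrier, was lowest in SG12 in LPDS. The levels in parental cells were 1020.3, 489.6 and 1049 in FBS and 1117, 1041 and 1067 in LPDS. In SGCTRL they were 1303, 1373 and 1273 in FBS and 1080.4, 1092 and 952 in LPDS. Every SGCTRL library in LPDS thus lay below every SGCTRL library in FBS. The parental FBS replicate 2 stands apart from its group, and its own-name SLC7A5 row, at 70.9 CPM, was the highest of all 24 libraries. In SG12 they were 1191, 1239.8 and 1024 in FBS and 542, 509 and 491 in LPDS. In SG21 they were 910.5, 914 and 1125 in FBS and 1059, 1536 and 1509.9 in LPDS. Replicate 1 of SG21 in LPDS lay below the other two of its group, inside the FBS range. Of the 7 neighbouring pairs in the order of the means only SGCTRL in FBS over SG12 in FBS had ranges apart. The highest mean, 1368 ± 268 CPM in SG21 in LPDS, was 2.66 times the lowest, 514 ± 26.0 in SG12 in LPDS (SD, n = 3).

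With the spread of all 24 libraries, the change of SLC7A5 in LPDS passed only in SG12. It was -1.16 ± 0.21 there on the log2 scale (SE; edgeR adjusted p = 0.00056), a 2.24-fold fall. In parental cells, SGCTRL and SG21 it was 0.34 ± 0.20, -0.32 ± 0.20 and 0.44 ± 0.20 (edgeR adjusted p = 0.382, 0.531 and 0.287). With the spread of the compared groups alone, the SGCTRL fall passed (-0.33, edgeR adjusted p = 0.000853). The SG21 rise passed that way as well (0.44, edgeR adjusted p = 0.0459). Without parental FBS replicate 2 the parental difference was 0.066. The SG12 response minus the parental response was -1.51 ± 0.29 (edgeR adjusted p = 0.00281), and minus that of SG21 it was -1.60 ± 0.29 (edgeR adjusted p = 0.00131). Against SGCTRL the difference of -0.84 ± 0.29 did not pass (edgeR adjusted p = 0.0757), although DESeq2 on the same counts gave -0.87 and passed (adjusted p = 0.00419).

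MTHFD2, the mitochondrial folate dehydrogenase, had both its highest and its lowest group mean in SG12. The levels in parental cells were 1925, 2054 and 1914 in FBS and 1973, 2212 and 2095 in LPDS. In SGCTRL they were 2526, 2579 and 2547 in FBS and 2433, 2441 and 2396 in LPDS. The 3 SGCTRL libraries in each medium lay close together. In SG12 they were 3191, 3186 and 2721 in FBS and 1473, 1524 and 1353 in LPDS. In SG21 they were 1914, 1828 and 2059 in FBS and 2225, 2456 and 2409 in LPDS. Every SG12 FBS library lay above, and every SG12 LPDS library below, all libraries of the other groups. The means were 3033 ± 270.0 CPM in SG12 in FBS and 1450.0 ± 88.1 in LPDS (SD, n = 3), a ratio of 2.09. Of the 7 neighbouring pairs in the order of means, 4 had ranges apart.

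In SG12 the log2 change of MTHFD2 in LPDS was -1.06 ± 0.081 (SE; edgeR adjusted p = 5.3e-15). It was 0.10 ± 0.080 in parental cells, -0.062 ± 0.080 in SGCTRL and 0.26 ± 0.080 in SG21, none of which passed (edgeR adjusted p = 0.523, 0.814 and 0.0588). The SG21 libraries did not overlap between media, and that difference passed with DESeq2 (0.26, adjusted p = 0.0258) and without replicate 1 of SG21 in LPDS (0.28, edgeR adjusted p = 0.0315). For MTHFD2 the SG12 response minus that of SGCTRL was -1.001 ± 0.11, minus that of parental cells -1.16 ± 0.11 and minus that of SG21 -1.32 ± 0.11 (edgeR adjusted p = 5.54e-09, 6.37e-11 and 1.59e-12).

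A further row, named SLC4A5, overlaps 1324 bases of the last MTHFD2 exon, none of them coding, and gives a separate reading. Its values were 626, 615 and 631 CPM in SG12 in FBS and 393, 378 and 293 in LPDS, with no overlap, and the log2 change of -0.81 ± 0.12 (SE) passed (edgeR adjusted p = 1.25e-06). In SG21 it rose from 325, 338 and 312 in FBS to 364, 572 and 585 in LPDS, by 0.61 ± 0.12 (edgeR adjusted p = 0.00104), where the member row gave 0.26 ± 0.080. Without replicate 1 of SG21 in LPDS, the SG21 rise in the SLC4A5 row was 0.78, and with replicate 1 alone it was 0.17 (edgeR adjusted p = 0.76). The readings parted in FBS: SG12 against SGCTRL was 0.27 ± 0.080 in the member row and -0.027 ± 0.12 in the SLC4A5 row.

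**Figure D2:**
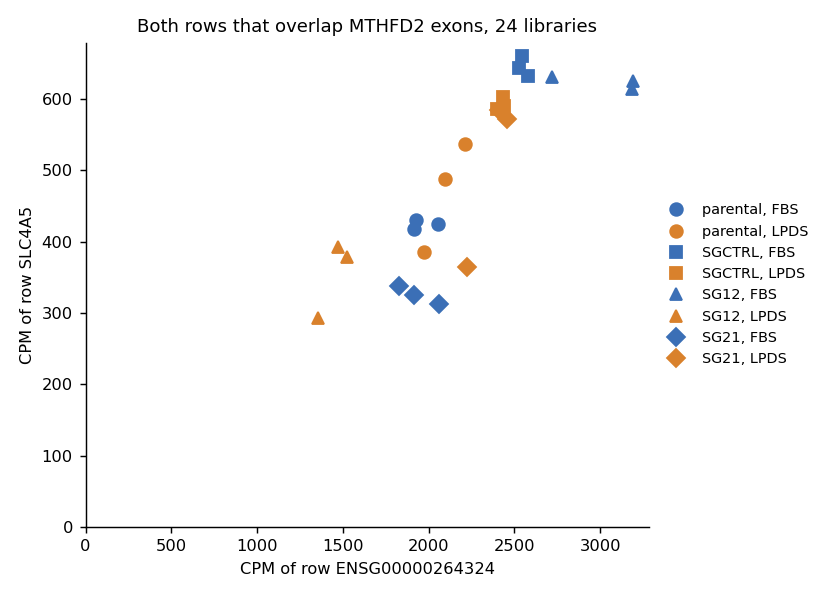
CPM of the member row ENSG00000264324 (x axis) against CPM of the row SLC4A5 (y axis), both over MTHFD2 exons, 1 point per library, with shape for line and colour for medium. The SG12 LPDS libraries lie lowest on the x axis (at most 1524 CPM) and the SG12 FBS libraries highest, while on the y axis SG12 and SGCTRL in FBS lie side by side.

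ALDH1L2, which works beside MTHFD2 in mitochondria, was counted by only 84 to 266 reads per library through its row. The levels in parental cells were 34.1, 37.6 and 35.0 in FBS and 58.5, 46.1 and 44.2 in LPDS. In SGCTRL they were 50.2, 57.7 and 54.2 in FBS and 59.0, 56.6 and 46.5 in LPDS. Parental libraries did not overlap between media, and SGCTRL libraries did. In SG12 they were 90.3, 71.1 and 70.3 in FBS and 41.5, 34.4 and 33.9 in LPDS. In SG21 they were 36.0, 34.6 and 44.9 in FBS and 45.5, 50.7 and 56.8 in LPDS. SG12 went from the highest group mean, 77.2 ± 11.3 CPM, to 36.6 ± 4.27 CPM (SD, n = 3), with no overlap, and the SG21 libraries in LPDS lay just above those in FBS. Of the 7 neighbouring pairs in the order of the means only SG12 in FBS over SGCTRL in FBS had ranges apart.

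The log2 change of ALDH1L2 in LPDS was -1.08 ± 0.17 (SE) in SG12 (edgeR adjusted p = 2.25e-06), a 2.11-fold fall. The differences in parental cells (0.48 ± 0.17), SGCTRL (0.0047 ± 0.16) and SG21 (0.37 ± 0.17) did not pass (edgeR adjusted p = 0.0896, 0.996 and 0.243). For ALDH1L2 the SG12 response minus that of SGCTRL was -1.08 ± 0.23, minus that of parental cells -1.55 ± 0.24 and minus that of SG21 -1.44 ± 0.24 (edgeR adjusted p = 0.00104, 4.43e-06 and 1.54e-05).

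BCAT1, the branched-chain aminotransferase, was ordered differently from the other 4 genes, with both SGCTRL groups lowest. The levels in parental cells were 207, 246 and 193 in FBS and 207, 225 and 207 in LPDS. In SGCTRL they were 132, 148 and 138 in FBS and 129, 129 and 143 in LPDS. SGCTRL lay below parental cells in both media with no overlap. In SG12 they were 308, 312 and 298 in FBS and 199.5, 165 and 141 in LPDS. In SG21 they were 237, 227 and 236 in FBS and 285, 189 and 162 in LPDS. In SG21 in LPDS, replicate 1, a library with the higher share of ambiguous reads, stood above replicates 2 and 3, which have the lower share. The highest mean was 306 ± 7.29 CPM in SG12 in FBS and the lowest 134 ± 7.87 in SGCTRL in LPDS (SD, n = 3). A further row over the first exon of BCAT1, ENSG00000255921, held 13 to 93 reads per library and gave -0.62 ± 0.35 for LPDS in SG12, which did not pass (edgeR adjusted p = 0.204). Its FBS means were 9.65 ± 1.92 CPM in SG12, 10.6 ± 4.06 in SGCTRL, 12.1 ± 1.70 in parental cells and 17.6 ± 5.10 in SG21 (SD, n = 3). SG12, not SGCTRL, was thus lowest in FBS in that row, and the order of lines given above is that of the member row.

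In LPDS, BCAT1 changed by -0.86 ± 0.14 (SE) on the log2 scale in SG12 (edgeR adjusted p = 1.16e-05), a 1.82-fold fall. It was -0.0085 ± 0.14 in parental cells, -0.054 ± 0.14 in SGCTRL and -0.16 ± 0.14 in SG21 (edgeR adjusted p = 0.982, 0.923 and 0.605). Without replicate 1 of SG21 in LPDS the SG21 difference was -0.46 and passed (edgeR adjusted p = 0.0148), and with that library alone it was 0.29. The part of the ambiguous-read share in it was not tested apart from those libraries. For BCAT1 the SG12 response minus that of SGCTRL was -0.81 ± 0.20, minus that of parental cells -0.85 ± 0.20 and minus that of SG21 -0.70 ± 0.20 (edgeR adjusted p = 0.00542, 0.00324 and 0.0142). The last of these was -0.40 without replicate 1 of SG21 in LPDS and -0.58 without replicate 3 of SG12 in LPDS, and no longer passed (edgeR adjusted p = 0.0929 and 0.0551).

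Counted over the set, LPDS lowered 5 of 5 genes in SG12, where 22.5% of rows were called, 11.5% higher and 11% lower. Among the 3742 genes measured through an opposite-strand row, 18.9% were lower there. The median log2 change was -1.08 over the 5 genes and 0.021 over all rows. Because the 5 genes were chosen with earlier results of these data known, these contrasts describe them and do not test enrichment. In parental cells 1 of 5 was called (SLC7A11, higher), where 4.55% of rows were called, 2.2% higher and 2.35% lower. SG21 likewise had 1 of 5 (SLC7A11, higher), where 3.83% of rows were called, 1.87% higher and 1.96% lower. In SGCTRL edgeR called 0 of 5, where 2.33% of rows were called, 1.32% higher and 1.01% lower. There 1790 rows had an unadjusted p under 0.05 and none of the 5 genes did. DESeq2 on the same counts also called 0 of the 5 there, while a spread estimated from the 6 SGCTRL libraries alone called SLC7A5 (-0.33, edgeR adjusted p = 0.000853). The response of SG12 was called lower than that of SGCTRL for 4 of 5, where 10.7% of rows were called, 5.23% higher and 5.5% lower. It was lower than that of parental cells for 5 of 5, where 8.6% of rows were called, 3.48% higher and 5.12% lower, and than that of SG21 for 5 of 5, where 13.1% of rows were called, 6.64% higher and 6.47% lower. For SG21 against SGCTRL the response was called higher for 1 of 5, where 0.0468% of rows were called, 0.0156% higher and 0.0312% lower. The 3 differences that involve SG12 share its libraries and are not separate evidence. The falls in SG12 passed for all 5 genes under each of 15 alternatives, with log2 values between -1.26 and -0.74 over those alternatives.

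**Figure D3:**
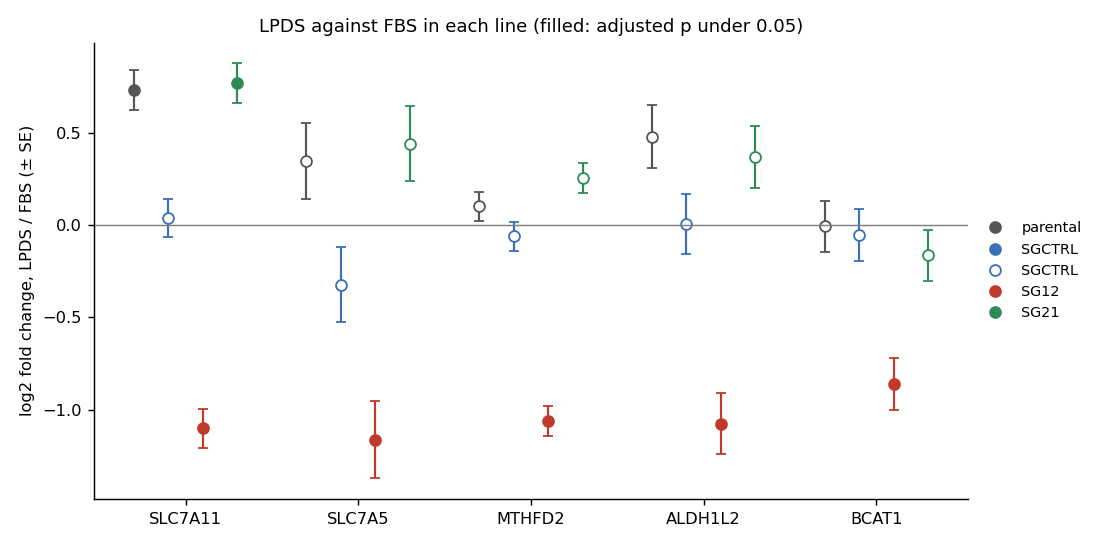
Log2 fold change of LPDS over FBS with SE (y axis) for the 5 genes (x axis) in parental cells, SGCTRL, SG12 and SG21, with filled points where the adjusted p was under 0.05. The SG12 values lie between -1.16 and -0.86, and the only other filled points are SLC7A11 in parental cells and SG21.

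In FBS, by the member rows, MTHFD2 and ALDH1L2 were higher in SG12 and lower in SG21 than in SGCTRL, and BCAT1 was higher in both. The comparisons with SGCTRL share its 3 libraries per medium, also when SGCTRL is set against parental cells. In FBS, SG12 was called higher than SGCTRL in 3 of 5 genes (as background, 25.2% of rows were called, 12.1% higher and 13.1% lower). BCAT1 was higher by 1.15 ± 0.14 (SE, log2; edgeR adjusted p = 3.23e-08), ALDH1L2 by 0.54 ± 0.16 (edgeR adjusted p = 0.0106) and MTHFD2 by 0.27 ± 0.080 (edgeR adjusted p = 0.00887). The low-count row over the first BCAT1 exon did not show the BCAT1 rise, at 9.65 ± 1.92 CPM in SG12 and 10.6 ± 4.06 in SGCTRL (SD, n = 3). Nor did the SLC4A5 row show the MTHFD2 rise, at 624 ± 8.48 CPM in SG12 and 645 ± 14.6 in SGCTRL (SD, n = 3; log2 difference -0.027). For SG21 against SGCTRL in FBS the SLC4A5 row gave -0.99. SLC7A11 at 0.24 ± 0.11 and SLC7A5 at -0.17 ± 0.20 did not pass. SLC7A11 passed with DESeq2 (0.27, adjusted p = 0.0476), with its size factors in edgeR (adjusted p = 0.0472) and with the spread of the compared groups alone (adjusted p = 0.0209), and SLC7A5 turned to 0.30 with the split term. With a term for the split in ambiguous reads, none of the 3 genes called higher passed (BCAT1 0.40, ALDH1L2 0.72, MTHFD2 0.35). The split coincides with the line in FBS, so its part cannot be told apart from that of SGCTRL except through SG21 in LPDS. Against parental cells in place of SGCTRL, SG12 in FBS was 1.17 in SLC7A11, 0.67 in MTHFD2, 1.16 in ALDH1L2 and 0.55 in BCAT1, all called higher. SLC7A5 was 0.48 and did not pass. Leaving out replicate 1 of SG12 in FBS ended the calls of MTHFD2 and ALDH1L2 against SGCTRL (edgeR adjusted p = 0.0525 and 0.0977). Leaving out SG12 replicate 2 ended that of MTHFD2 and leaving out SGCTRL replicate 1 that of ALDH1L2 (edgeR adjusted p = 0.0579 and 0.0549).

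SG21 in FBS lay below SGCTRL in 3 of 5 genes and above it in BCAT1 (as background, 14% of rows were called, 7.35% higher and 6.69% lower). SLC7A11 differed by -0.87 ± 0.11 (SE, log2; edgeR adjusted p = 2.67e-08), MTHFD2 by -0.40 ± 0.080 (edgeR adjusted p = 0.000253), ALDH1L2 by -0.49 ± 0.17 (edgeR adjusted p = 0.0374) and BCAT1 by 0.74 ± 0.14 (edgeR adjusted p = 0.000214). SLC7A5 at -0.42 ± 0.20 did not pass. It turned to 0.049 with the split term and 0.22 against parental cells, and passed with the covariate of reads on rows with no gene opposite and with the spread of the compared groups alone (edgeR adjusted p = 0.0385 and 1.98e-05). With parental cells in place of SGCTRL none of the 4 genes called passed, with differences of 0.062 in SLC7A11, -0.0044 in MTHFD2, 0.13 in ALDH1L2 and 0.13 in BCAT1 (edgeR adjusted p = 0.719, 0.977, 0.621 and 0.527). With the split term SLC7A11 alone passed (-0.80), and MTHFD2 was -0.33, ALDH1L2 -0.31 and BCAT1 -0.012. The ALDH1L2 call was lost without SGCTRL replicate 2 or 3 and without SG21 replicate 1 or 2 (edgeR adjusted p = 0.107 to 0.175), and also with no count filter or a stricter one (edgeR adjusted p = 0.0965 and 0.056).

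In LPDS, SG12 was below SGCTRL in 4 of 5 genes (as background, 11.1% of rows were called, 5.13% higher and 6.01% lower). SLC7A5 differed by -1.01 ± 0.21 (SE, log2; edgeR adjusted p = 0.00354), SLC7A11 by -0.90 ± 0.11 (edgeR adjusted p = 1.43e-08), MTHFD2 by -0.73 ± 0.081 (edgeR adjusted p = 2.25e-09) and ALDH1L2 by -0.55 ± 0.17 (edgeR adjusted p = 0.024). BCAT1 at 0.35 ± 0.14 did not pass (edgeR adjusted p = 0.114), and its sign depended on the setting. It was -0.40 with the split term and -0.30 against parental cells, while it passed at 0.35 with the spread of the compared groups alone and at 0.46 without SG12 replicate 3 (edgeR adjusted p = 0.0154 and 0.0474). Against parental cells, SLC7A11, SLC7A5 and MTHFD2 were also lower in SG12 in LPDS, with log2 differences of -0.66, -1.03 and -0.50, and ALDH1L2 at -0.40 no longer passed. With the split term SLC7A11 (-0.83) and MTHFD2 (-0.65) remained past the threshold, and SLC7A5 (-0.54) and ALDH1L2 (-0.36) did not (edgeR adjusted p = 0.587 and 0.684). The ALDH1L2 call was also lost when replicate 1 or 2 of SGCTRL or replicate 2 or 3 of SG12 was left out (edgeR adjusted p = 0.0896 to 0.123), and with no count filter (edgeR adjusted p = 0.0545).

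In LPDS, SG21 differed from SGCTRL in BCAT1 only among the 5 (as background, 10.9% of rows were called, 5.49% higher and 5.44% lower), by 0.63 ± 0.14 (SE, log2; edgeR adjusted p = 0.00185). That value was 0.33 without SG21 replicate 1 (edgeR adjusted p = 0.0819), 0.33 with the split term and -0.024 against parental cells. The other 4 genes differed by 0.34 ± 0.20 (SLC7A5), -0.13 ± 0.16 (ALDH1L2), -0.14 ± 0.11 (SLC7A11) and -0.084 ± 0.080 (MTHFD2), and none passed. Against parental cells the last 3 of these were above 0, at 0.021, 0.10 and 0.15.

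SGCTRL itself differed from parental cells in all 5 genes in FBS, 4 higher and BCAT1 lower (as background, 18.3% of rows were called, 8.24% higher and 10.1% lower). SLC7A11 was higher by 0.93 ± 0.11 (SE, log2), SLC7A5 by 0.65 ± 0.20, ALDH1L2 by 0.62 ± 0.17 and MTHFD2 by 0.40 ± 0.080, and BCAT1 differed by -0.61 ± 0.14 (edgeR adjusted p = 2.62e-08, 0.0367, 0.00703, 0.000397 and 0.00235). With the split term only SLC7A11 passed (0.86), and SLC7A5 was 0.18, MTHFD2 0.32, ALDH1L2 0.44 and BCAT1 0.14. With the share of reads on rows that have no gene opposite as a covariate, SLC7A11 alone passed as well. The SLC7A5 difference was 0.37 without the parental replicate 2, and its call was lost when any SGCTRL library was left out (edgeR adjusted p = 0.0724 to 0.0852). That SLC7A5 call was lost in 9 of 15 alternatives in all, among them no count filter, a stricter one, library sizes from all uniquely aligned reads and the spread of the compared groups alone (edgeR adjusted p = 0.075, 0.0654, 0.0514 and 0.277). In LPDS only BCAT1 was called, with a log2 difference of -0.65 ± 0.14 (edgeR adjusted p = 0.0124; as background, 0.811% of rows were called, 0.452% higher and 0.359% lower), which was 0.099 with the split term. The BCAT1 call in LPDS was lost without parental replicate 1 or 2 or SGCTRL replicate 1 or 2 (edgeR adjusted p = 0.056 to 0.0856).

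**Figure D4:**
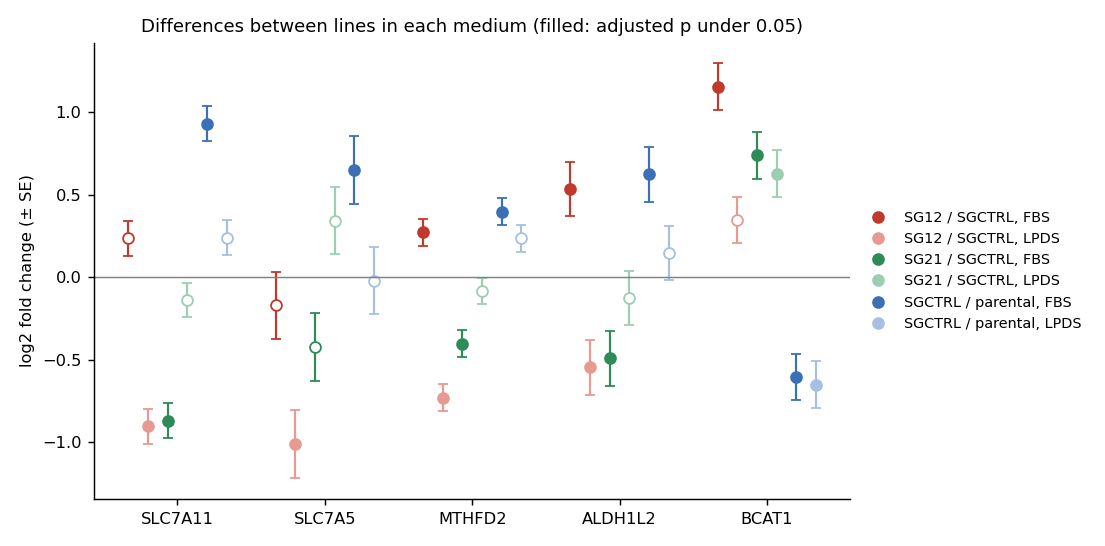
Log2 fold change with SE (y axis) for the 5 genes (x axis) between SG12 and SGCTRL, SG21 and SGCTRL, and SGCTRL and parental cells, in FBS (dark) and LPDS (pale), with filled points where the adjusted p was under 0.05. SLC7A11, MTHFD2 and ALDH1L2 were higher in SGCTRL than in parental cells and lower in SG21 than in SGCTRL in FBS, and BCAT1 the other way round. Both sets of differences use the same SGCTRL libraries.

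The knockout lines also parted from each other, by medium. In FBS, SG12 was above SG21 in SLC7A11 by 1.10 ± 0.11 (SE, log2; edgeR adjusted p = 7.13e-12), in ALDH1L2 by 1.03 ± 0.16, in MTHFD2 by 0.67 ± 0.080 and in BCAT1 by 0.42 ± 0.14, 4 of 5 genes (as background, 27.4% of rows were called, 13% higher and 14.4% lower). The BCAT1 call (edgeR adjusted p = 0.0212) was lost without SG12 replicate 1 or 2 or SG21 replicate 2 (0.0518 to 0.0795), and SLC7A5 at 0.25 ± 0.20 did not pass, except with the spread of the compared groups alone (edgeR adjusted p = 0.0403). In LPDS, SG12 was below SG21 in 3 of 5 (as background, 18.6% of rows were called, 8.89% higher and 9.73% lower), with -1.35 ± 0.21 in SLC7A5, -0.77 ± 0.11 in SLC7A11 and -0.65 ± 0.081 in MTHFD2 (edgeR adjusted p = 0.000145, 2.43e-07 and 1.47e-08). ALDH1L2 and BCAT1 were -0.42 ± 0.17 and -0.28 ± 0.14 and did not pass. BCAT1 passed with the split term, at -0.74, and without replicate 3 of SG21 in LPDS, at -0.44 (edgeR adjusted p = 0.000461 and 0.0181), and was 0.011 without replicate 1. ALDH1L2 passed with library sizes from all uniquely aligned reads (edgeR adjusted p = 0.0485).

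Across the 24 libraries, log2 CPM of SLC7A11, SLC7A5, MTHFD2 and ALDH1L2 had Pearson correlations of 0.58 to 0.85 with each other, and BCAT1 had -0.029 to 0.20 with them. These points share groups, so the values describe the order of groups rather than of independent samples. Without the 3 SG12 LPDS libraries, in which all 5 fell, the range among the first 4 was 0.46 to 0.90 over 21 libraries and that with BCAT1 was -0.27 to 0.12. Among the 9039 rows that passed a floor on abundance, the closest to SLC7A5 was ENSG00000275719, read as SLC1A5, a glutamine carrier (r = 0.95 over 24 libraries, 0.91 over the 21). For MTHFD2 it was FARP1, read as STK24 (r = 0.95 and 0.91), followed by SRD5A3-AS1, read as SRD5A3 (r = 0.93). SLC7A11 and ALDH1L2 had the same most similar row, ENSG00000287200, to which no gene was assigned (r = 0.92 and 0.90 over 24 libraries). For BCAT1 it was SMIM15-AS1, read as SMIM15 (r = 0.91).

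Beyond the 5 genes, 36 further genes of amino acid transport, folate, amino acid synthesis, stress response, NRF2 and tRNA charging lists could be read through opposite-strand rows, of 140 listed. In SG12, LPDS lowered 12 and raised 7 of these 36 and 17 did not pass, where over all 3742 genes read this way the shares called were 15.3% higher and 18.9% lower. The same shares are the background for the counts of each list that follow. The lists, too, were chosen with earlier results of these data known. The median log2 change over the 36 was -0.16, against -0.041 over all of them. Among 4 other amino acid transporters, SLC1A5 (row ENSG00000275719) fell by 0.87 ± 0.15 (SE, log2; edgeR adjusted p = 0.000185) and the glycine carrier SLC6A9 (row CCDC24) by 0.69 ± 0.14 (edgeR adjusted p = 0.000124). In the same cells SLC7A6 (row SLC7A6OS), a basic and neutral amino acid exchanger, rose by 0.58 ± 0.091 and the taurine carrier SLC6A6 (row GRIP2) by 1.03 ± 0.26 (edgeR adjusted p = 3.43e-06 and 0.00243). Among FBS means of the lines, that of SG12 was highest for SLC6A9 (153 CPM) and lowest for SLC7A6 (438) and SLC6A6 (9.34). For SLC1A5 it was 1546, below SGCTRL at 1597.

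Of 8 other serine, glycine and folate genes, 2 rose, 2 fell and 4 did not pass in SG12. The mitochondrial enzymes SHMT2 and MTHFD2L fell, by 0.26 ± 0.098 and 0.56 ± 0.18 (SE, log2; edgeR adjusted p = 0.0436 and 0.0183). The cytosolic enzymes SHMT1 and MTHFD1 rose, by 0.55 ± 0.18 and 0.29 ± 0.10 (edgeR adjusted p = 0.0185 and 0.0362). All 4 estimates were smaller than those of MTHFD2 and ALDH1L2. SHMT1 rose from 32.6 CPM and MTHFD1 from 315, each the lowest FBS mean of the 4 lines. At 47.9 and 385 CPM they were still lowest among the lines in LPDS. MCCC1 was the only other measured gene of branched-chain amino acid use, at -0.32 ± 0.31 (edgeR adjusted p = 0.5).

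Of 4 genes of amino acid synthesis and glutathione, PYCR1, the proline enzyme, fell by 0.58 ± 0.12 (SE, log2; edgeR adjusted p = 0.000895), and the others, GOT2 and GLUD1 among them, did not pass. Among 8 stress response genes VEGFA and VLDLR fell, by 0.62 ± 0.095 and 0.46 ± 0.17 (edgeR adjusted p = 1.99e-06 and 0.0486), and EIF2AK3, which encodes the stress kinase PERK, rose by 0.62 ± 0.12 (edgeR adjusted p = 5.95e-05). CEBPB at -0.94 ± 0.37 did not pass (edgeR adjusted p = 0.0709). ATF4 itself was not measured through an opposite-strand row, and the row named DDIT3 was read as MARS1.

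Of the 7 measured genes of tRNA charging, 4 fell in SG12 and none rose. WARS1 fell by 2.23 ± 0.10 (SE, log2; edgeR adjusted p = 6.73e-24), from 1209 ± 97.3 CPM in FBS to 258 ± 23.0 in LPDS (SD, n = 3). The other lines had WARS1 means of 372 (parental), 415 (SGCTRL) and 337 CPM (SG21) in FBS. Their LPDS means were 491, 532 and 486 in the same order. AIMP2, a scaffold of the synthetase complex, fell by 1.63 ± 0.099 and MARS1 by 0.87 ± 0.13 (edgeR adjusted p = 1.48e-18 and 7.74e-07). AIMP2 went from 3251 to 1050 CPM in SG12, while its other FBS means were 1422 (parental), 1157 (SGCTRL) and 1390 (SG21). Of the NRF2-list genes other than SLC7A11, PRDX1 rose by 1.04 ± 0.084 and NFE2L2, which encodes NRF2, fell by 0.39 ± 0.13 (edgeR adjusted p = 3.6e-14 and 0.0264). PRDX1 rose from 810 CPM, its lowest FBS mean, to 1661, which was still its lowest LPDS mean. Its other FBS means were 3120 (parental), 3097 (SGCTRL) and 2817 (SG21). SLC7A11, which is on that list too, thus moved opposite to PRDX1 in these libraries.

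**Figure D5:**
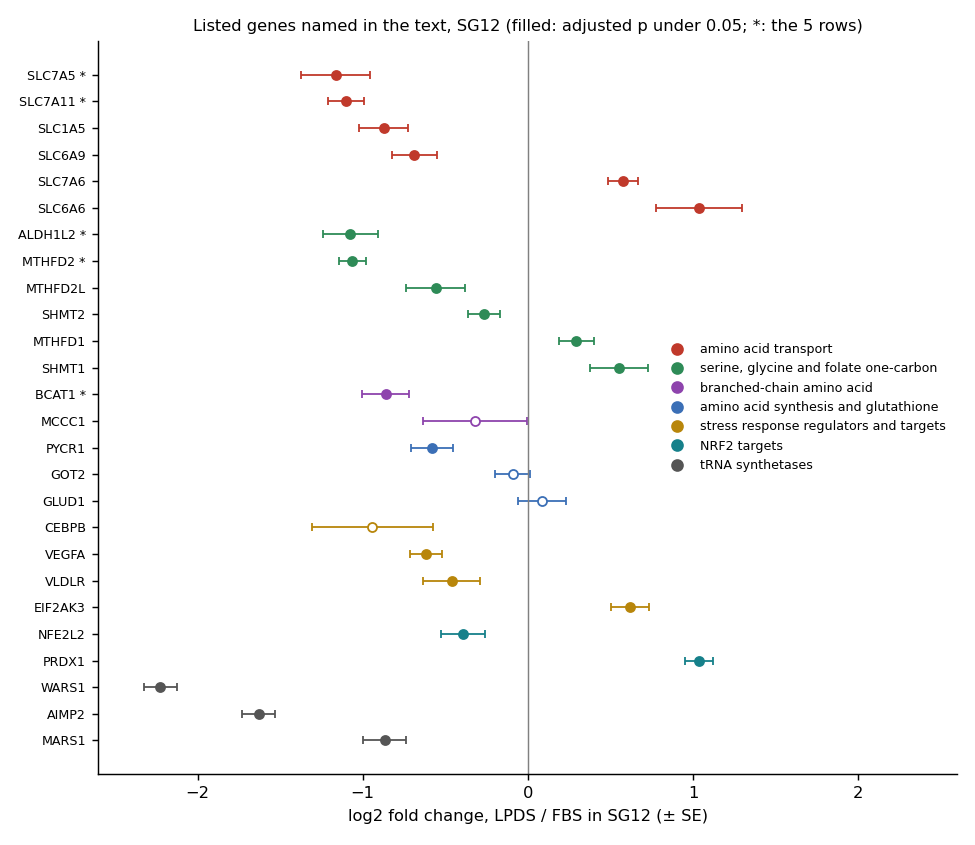
Log2 fold change of LPDS over FBS in SG12 with SE (x axis) for 26 of the 41 measured genes of the lists, those named in the text (y axis), coloured by list, with filled points where the adjusted p was under 0.05 and stars on the 5 genes of the report. WARS1 and AIMP2 lie lowest, PRDX1 and SLC6A6 highest of those shown, and the 5 starred genes between -1.16 and -0.86.

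In the other lines LPDS raised 3 of the 36 genes in parental cells (all genes read this way, 3.74% higher and 2.08% lower), 4 in SGCTRL (2.27% higher and 1.92% lower) and 6 in SG21, where 1 fell (3.31% higher and 3.53% lower). WARS1 rose in each of these, by 0.41 ± 0.097 (SE, log2) in parental cells, 0.37 ± 0.096 in SGCTRL and 0.49 ± 0.097 in SG21 (edgeR adjusted p = 0.0071, 0.0231 and 0.000809). SLC1A5 rose in SG21 by 0.63 ± 0.15 (edgeR adjusted p = 0.0177), beside SLC7A11 there. Against SGCTRL in FBS, SG12 was higher in 9 and lower in 9 of the 36, where 19.8% higher and 19.3% lower of all genes read this way were called. SG21 was higher in 4 and lower in 2 (background 12.7% higher and 11.7% lower). In LPDS, SG12 was higher than SGCTRL in 1 (MTHFD2L) and lower in 11, among them WARS1 (-1.03 ± 0.098), SLC1A5 (-0.78 ± 0.15) and PYCR1 (-0.75 ± 0.12), where the background was 8.02% higher and 12.2% lower. SG21 was higher in 5 and lower in 3 (background 9.81% higher and 10% lower).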

How the data were processed

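Ribosome-depleted total RNA of 24 cultures was made into stranded libraries, per the labels' protocols. The authors deposited raw counts per gene, 1 table of 61578 rows per library; reads were aligned to hg38 with STAR after bcl2fastq, per the submitters' processing notes. How reads were assigned to genes (program, strandedness, annotation release) is not given in the sources used here. Between 94.3% and 94.6% of uniquely aligned reads fell in no counted gene, and the counts sit mostly on the strand opposite to the RNA, so a row was read as the gene on the other strand with which it shares at least 50 exon bases and at least 80% of its opposite-strand overlap (GENCODE 29; 56736 rows matched). Reads of a gene and of its opposite-strand partner cannot be told apart.

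CPM are counts for every 1000000 gene reads of a library. Tests used edgeR 4.0.16 (quasi-likelihood F test, TMM, filterByExpr, robust) in R 4.3.3 with a mean for each of 8 groups over all 24 libraries, which share 1 estimate of spread, and Benjamini-Hochberg adjustment over 12822 rows in each comparison. SE is the log2 difference divided by the square root of F. Gene reads per library of 2399212 to 5543678 set the precision, and intervals cover these cultures only. The script was tested on simulated counts. No 2 replicates agreed within sampling noise.

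The members and lists were chosen with earlier results of these data known. Named genes were the 5 members, up to 4 genes with a call from each list, and the rows most correlated with each member among rows whose mean log2 CPM reached 2. Where a gene outside this rule is named, it was chosen after its values were seen. Some listed genes that are in the counts are not reported here by name. Alternatives were other count filters, DESeq2 1.42.0 as size factors and as test, all uniquely aligned reads as library size, a replicate block, a term for the split in ambiguous reads, a spread from the compared groups alone, parental cells as control and leaving out each library. The covariate of reads on rows with no gene opposite and SG21 in LPDS with its first library alone were added after seeing the data.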

Additional observations from a re-analysis of the deposited data

Results flagged for a closer look

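The change in LPDS differed between lines, by a test of the difference itself, for the following genes; values are log2 differences with SE from 3 libraries per group. The response of SG12 minus that of SGCTRL was -1.14 ± 0.15 (edgeR adjusted p = 1.93e-07) in SLC7A11 and -1.001 ± 0.11 (edgeR adjusted p = 5.54e-09) in MTHFD2. It was -1.08 ± 0.23 (edgeR adjusted p = 0.00104) in ALDH1L2 and -0.81 ± 0.20 (edgeR adjusted p = 0.00542) in BCAT1. Against parental cells the SG12 response differed by -1.83 ± 0.15 (edgeR adjusted p = 4.03e-13) in SLC7A11, -1.51 ± 0.29 (edgeR adjusted p = 0.00281) in SLC7A5 and -1.16 ± 0.11 (edgeR adjusted p = 6.37e-11) in MTHFD2. In ALDH1L2 it differed by -1.55 ± 0.24 (edgeR adjusted p = 4.43e-06) and in BCAT1 by -0.85 ± 0.20 (edgeR adjusted p = 0.00324). Between the knockout lines, SG12 minus SG21 was -1.87 ± 0.15 (edgeR adjusted p = 2.09e-13) in SLC7A11, -1.60 ± 0.29 (edgeR adjusted p = 0.00131) in SLC7A5 and -1.32 ± 0.11 (edgeR adjusted p = 1.59e-12) in MTHFD2. The same difference was -1.44 ± 0.24 (edgeR adjusted p = 1.54e-05) in ALDH1L2 and -0.70 ± 0.20 (edgeR adjusted p = 0.0142) in BCAT1. For SG21 against SGCTRL the SLC7A11 response was higher by 0.73 ± 0.15 (edgeR adjusted p = 0.0452), a call lost in 15 of 23 alternatives, with a difference of 0.038 against parental cells. Every difference listed for SG12 is negative, and all of those use the same 6 SG12 libraries.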

How the results depend on the processing

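Over 80 member results and 1375 settings, 1278 kept their side of the threshold, 66 lost a call, 25 gained one and in 6 a called value changed sign, beside 2 sign changes in the SLC4A5 row over MTHFD2. Among the 1278, 36 values in 16 results that were not called changed sign, some of them given in the report. The falls of all 5 genes in SG12 held under each of the 15 alternatives run for that comparison. Numbers that follow are member genes called, out of 5, and the cause of each change was not tested. In SGCTRL, LPDS against FBS called 1 rather than 0 with the spread from the compared groups alone. In SG21 the same comparison called 2 rather than 1 with the replicate block, library sizes from all uniquely aligned reads, the covariate of reads on rows with no gene opposite, the DESeq2 test or the compared groups' spread, and 1 to 3 when a library was left out (3 without SG21 LPDS replicate 1). With the term for the split in ambiguous reads, SG12 against SGCTRL called 0 rather than 3 in FBS and 2 rather than 4 in LPDS, SG21 against SGCTRL 1 rather than 4 in FBS and 0 rather than 1 in LPDS, and SGCTRL against parental cells 1 rather than 5 in FBS and 0 rather than 1 in LPDS. The covariate of reads on rows with no gene opposite gave 1 for SGCTRL against parental cells in FBS. With parental cells as control, SG21 gave 0 in FBS and 0 in LPDS. Leaving out 1 library gave 1 to 3 for SG12 against SGCTRL in FBS (1 without SG12 FBS replicate 1), 0 to 1 for SG21 against SGCTRL in LPDS (0 without SG21 LPDS replicate 1) and 0 to 1 for SGCTRL against parental cells in LPDS. The response of SG21 against that of SGCTRL called 0 rather than 1 with no count filter, the split term, the first SG21 LPDS library alone or parental cells, and 0 to 1 when a library was left out.

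The log2 values of these 8 sign changes under the split term were -0.012 (BCAT1, SG21 against SGCTRL, FBS), 0.14 and 0.099 (BCAT1, SGCTRL against parental, FBS and LPDS) and 0.59 (SLC4A5 row, SG12 against SGCTRL, FBS). With parental cells as control they were 0.062 and 0.13 (SLC7A11 and ALDH1L2, SG21, FBS), -0.024 (BCAT1, SG21, LPDS) and 0.60 (SLC4A5 row, SG12, FBS). Whether replicate numbers pair the samples was not settled. In no comparison did every pair of same-numbered deviations correlate above 0.1, while single values reached 0.21 (LPDS against FBS in parental cells, replicate 2). The replicate block gave 0.25 for MTHFD2 in SG21 (edgeR adjusted p = 0.0445).

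Counts of all rows called, with their range over alternatives, moved by over 1.5 times in 12 of 16 comparisons, and the cause was not tested. For LPDS against FBS they were 583 (68 to 901) in parental cells, 299 (154 to 747) in SGCTRL and 491 (81 to 827) in SG21. SG12 against SGCTRL gave 3236 (842 to 3466) in FBS and 1428 (200 to 2082) in LPDS, SG21 against SGCTRL 1800 (157 to 3101) and 1401 (916 to 1595), and SGCTRL against parental cells 2351 (133 to 2519) and 104 (1 to 345). SG12 against SG21 in LPDS gave 2387 (1092 to 2633). The responses gave 6 (0 to 248) for SG21 against SGCTRL and 1682 (820 to 2018) for SG12 against SG21. Library sizes from all uniquely aligned reads moved the share of calls that were higher from 48.9% to 60.2% for LPDS in SG21, from 55.8% to 38.0% for SGCTRL against parental cells in LPDS and from 33.3% to 63.6% for the SG21 response against that of SGCTRL. Depth limits ALDH1L2 most, at 84 to 266 reads per library.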
